A study of Homo sapiens with 12 samples.

Results

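The genes described here are 52 interferon-stimulated genes, chosen by symbol and matched through their Ensembl identifiers, and all 52 were present among the 17013 genes of the expression table. They were measured by mRNA-seq in HCC1806, a triple-negative breast cancer cell line, after transfection with a non-targeting control siRNA (siNT) or with a pool of 4 siRNAs against MLK4 (siMLK4), a mixed-lineage kinase encoded by MAP3K21. Cells of each kind were given 1 μM doxorubicin, a topoisomerase II poison that breaks DNA, for 24 h, or no drug. This gave 4 groups of 3 libraries: siNT with vehicle, siNT with doxorubicin, siMLK4 with vehicle and siMLK4 with doxorubicin. The libraries without drug carry DMSO and a time code of 0 in their labels, while the methods describe those cells as left untreated. The results text of the study names vehicle only, and a supplementary legend names DMSO or doxorubicin for 24 h. These libraries are called vehicle here. If the time code means that the vehicle libraries were harvested when the drug was added, 2 effects cannot be told apart in any doxorubicin comparison. These are the effect of doxorubicin and that of 24 h more in culture after transfection. Reads on the listed genes ranged from 16759025 to 19302248 per library. All values come from 1 cell line, the replicates are transfections made in triplicate, and the sources do not say whether these were done on separate occasions, so p-values measure the spread between these libraries, which may be technical. A single non-targeting siRNA served as control, and effects of MLK4 loss and of the RNA duplexes themselves cannot be told apart in this design. In bulk RNA, fewer expressing cells and less RNA per cell cannot be told apart either.

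Interferons bind receptors that activate the kinases JAK1 and TYK2, which phosphorylate STAT2 and related factors. STAT2 joins IRF9 in a complex that binds the interferon-stimulated response element (ISRE) in the promoters of its targets, and several interferon regulatory factors bind closely related letters. The induced proteins restrict viruses at entry, translation, genome copying and release, and in tumour cells part of the same set is known to respond to DNA damage, through sensors of nucleic acid such as cGAS and RIG-I.

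The core of the ISRE, written here as GAAA, any 2 bases and GAAA again, was searched on both strands in RefSeq promoters of build GRCh38.p14, each spanning 250 bases before to 50 bases after a start site. Promoters of 43 of the 52 genes were searched, and those of IFIT2, IFITM2, OAS2, OASL, MX2, GBP2, PARP10, TRIM22 and USP18 were not analysed here. Among the former, 30 of the 43 (69.8%) genes had at least 1 match. Counted by promoter, 35 of 59 (59.3%) had a match, against 3.57% of all 35116 promoters of the same length. The letters TTCNNNGAA, a general binding motif of STAT family factors, were in 16 of the 59 promoters (27.1%) and in 7.66% of all promoters. Matches to the 2 motifs were counted separately and may overlap. The 6 windows of 30 bases below belong to the genes with the largest fold changes among those that passed the test in any comparison and had an ISRE match. They are shown because they let genes that moved in different directions be set side by side. Each is written 5′ to 3′ on the strand of its gene, with the ISRE letters in capitals. TTTC, any 2 bases and TTTC is the same motif read from the other strand.
HERC5: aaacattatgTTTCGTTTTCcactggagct
IFIT1: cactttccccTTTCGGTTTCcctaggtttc
IFI6: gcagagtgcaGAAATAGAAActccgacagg
IFI27: cggtttcctgGAAAATGAAAcctatctcat
IFIT3: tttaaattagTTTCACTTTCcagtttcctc
IFI44: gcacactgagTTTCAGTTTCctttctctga

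In the order of that list the windows lie at chr4:88457035-88457064 on the plus strand, chr10:89392510-89392539 on the plus strand, chr1:27672266-27672295 on the minus strand, chr14:94110631-94110660 on the plus strand, chr10:89327865-89327894 on the plus strand and chr1:78649761-78649790 on the plus strand. HERC5, IFI6, IFI27 and IFIT3 were higher with doxorubicin in at least 1 of the siRNA arms. IFI44 was lower in both arms, and IFIT1 was lower in MLK4-depleted cells alone. All 6 hold the letters because only genes with a match were shown, so no conclusion on direction follows from their sharing. OAS1, which fell most with doxorubicin in both arms, had no match in its promoter. Among genes with a searched promoter, a match was present in 8 of 11 that were higher with doxorubicin and in 4 of 7 that were lower. It was present in all 4 that were higher in MLK4-depleted cells and in 18 of 25 that passed no test. In the whole set 8 genes were higher in MLK4-depleted cells. Of these, IFIT2, GBP2, TRIM22 and PARP10 had no promoter searched. A match is a description of the sequence and not evidence of a bound site.

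The siRNAs that define the knock-down are shown because a duplex that matched a gene of the set would lower it directly. The capitals mark the 19 bases found in MAP3K21 transcripts. None of the 4 stretches was found whole in a transcript of the 52 genes. Only matches of all 19 bases were searched, so effects of shorter matches were not tested.
siMLK4_1: GGAAAGAUGCUCAGAGAGAuu
siMLK4_2: AGGAGAAGCCCAAGGUAAAuu
siMLK4_3: AGAAGAAACGAGAGGGAAUuu
siMLK4_4: AGAACAGAUUGCAAAGAAAuu

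MAP3K21 followed the siRNA labels. Its normalized reads, which are reads divided by the size factor of the library, were 553, 669.6 and 674 in siNT vehicle, 758, 856 and 772 in siNT doxorubicin, 103, 94.7 and 88.7 in siMLK4 vehicle and 113, 138 and 94.3 in siMLK4 doxorubicin. The MLK4-depleted means were 15.1% of the control mean with vehicle and 14.5% with doxorubicin. Here and throughout, log2 fold changes are differences of variance-stabilized log2 values. That scale shrinks the changes of weakly expressed genes, so ratios of mean normalized reads are given beside some of these changes. On that scale MAP3K21 fell by 2.24 (SE 0.12, adjusted p = 9.7e-08) and by 2.37 (SE 0.12, adjusted p = 1.1e-07). Tests were made with limma, and adjusted p stands for the Benjamini-Hochberg value over all 17013 genes. A gene is said to have risen or fallen when its adjusted p was under 0.01 and its absolute log2 fold change over 0.75.

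All 4 epithelial markers (EPCAM, CDH1, KRT8 and KRT18) and all 4 basal markers (KRT5, KRT14, KRT17 and TP63) were listed. Summed over each list, normalized reads were 32060 to 69270 for the epithelial markers, with KRT8 the most abundant, and 10160 to 42520 for the basal markers, with KRT5 the most abundant. These markers moved with the groups too. With MLK4 knock-down KRT14 fell by 1.05 (SE 0.16, adjusted p = 0.00033) with vehicle and also fell with doxorubicin (adjusted p = 8.9e-05), and KRT17 fell by 0.82 (SE 0.16, adjusted p = 0.0019) with doxorubicin, a call lost without siMLK4 doxorubicin 1 (-0.78) or 2 (-0.74) or siNT doxorubicin 3 (-0.80). KRT5 had a value of 0.64 (adjusted p = 0.0074) and EPCAM of -0.62 (adjusted p = 0.0058) with vehicle, both under the fold threshold. Of the 4 epithelial markers 0 passed with knock-down, while at an adjusted p under 0.05 alone EPCAM and KRT18 were lower with vehicle and EPCAM, KRT18 and KRT8 with doxorubicin, where their values were -0.63 (adjusted p = 0.0056), -0.69 (adjusted p = 0.0095) and -0.66 (adjusted p = 0.012). With doxorubicin treatment KRT5, KRT14 and TP63 fell in both siRNA arms, as did KRT18. The progesterone receptor gene PGR was at 0 reads in all 6 vehicle libraries and at 7.26 to 18.5 normalized reads in the doxorubicin libraries, and the oestrogen receptor gene ESR1 had 36 to 148.5. PGR rose with doxorubicin in both arms, and ESR1 fell by 0.78 (SE 0.17, adjusted p = 0.0014) in MLK4-depleted cells, a call lost without siMLK4 doxorubicin 1 or siMLK4 vehicle 1 or 2 (-0.72 to -0.64). Of 5 leukocyte markers, PTPRC and CD14 were listed and neither exceeded 43.4 normalized reads. Their sum was 12.9 to 36.8 in the vehicle libraries and 38.7 to 64.2 in the doxorubicin libraries. PTPRC rose with doxorubicin by 0.84 (SE 0.14, adjusted p = 0.00018) in MLK4-depleted cells, a call lost without siMLK4 vehicle 1 (0.69), and CD14 passed no test. CD3E, LYZ and CD68 were not among the listed genes. Of 4 fibroblast markers COL1A1 and PDGFRB were listed. Their summed normalized reads, almost all from COL1A1, were 282 to 336 in siNT vehicle and 517 to 601 in siMLK4 vehicle. PDGFRB passed no test, and COL1A1 passed with knock-down in vehicle alone, where it rose by 0.78 (SE 0.12, adjusted p = 0.00041), a call lost without siMLK4 vehicle replicate 3 (0.72) or siNT vehicle replicate 3 (0.74). DCN and COL1A2 were not among the listed genes. Of 3 endothelial markers VWF was listed, with 13.5 to 35.9 normalized reads in siNT vehicle, 23.1 to 36.5 in siNT doxorubicin, 31.9 to 58.4 in siMLK4 vehicle and 36.7 to 67.1 in siMLK4 doxorubicin. It passed no test, with knock-down values of 0.46 (adjusted p = 0.064) and 0.43 (adjusted p = 0.084). The part of these markers in the changes below was not tested.

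In control cells with vehicle the interferon-stimulated genes covered a wide span of levels. Per kilobase of merged exons, the secreted glycoprotein gene LGALS3BP had a mean of 2552 normalized reads, followed by UBE2L6 at 807, IFITM3 at 560.2, ISG15 at 551 and BST2 at 499. At the lower end stood TRIM22 at 1.15, CMPK2 at 0.735 and RSAD2 at 0.38. The median of the set was 58.3 normalized reads per kilobase, against 58.2 for all genes. CMPK2 and RSAD2 had means under 10 normalized reads. Summed over the set, reads made up 0.165% to 0.198% of each library in siNT vehicle, 0.208% to 0.223% in siNT doxorubicin, 0.233% to 0.267% in siMLK4 vehicle and 0.26% to 0.268% in siMLK4 doxorubicin. All 6 MLK4-depleted libraries had a larger share than any control library. LGALS3BP was the most abundant gene in every library and supplied 13.1% to 25.6% of the sum.

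**Figure D1:**
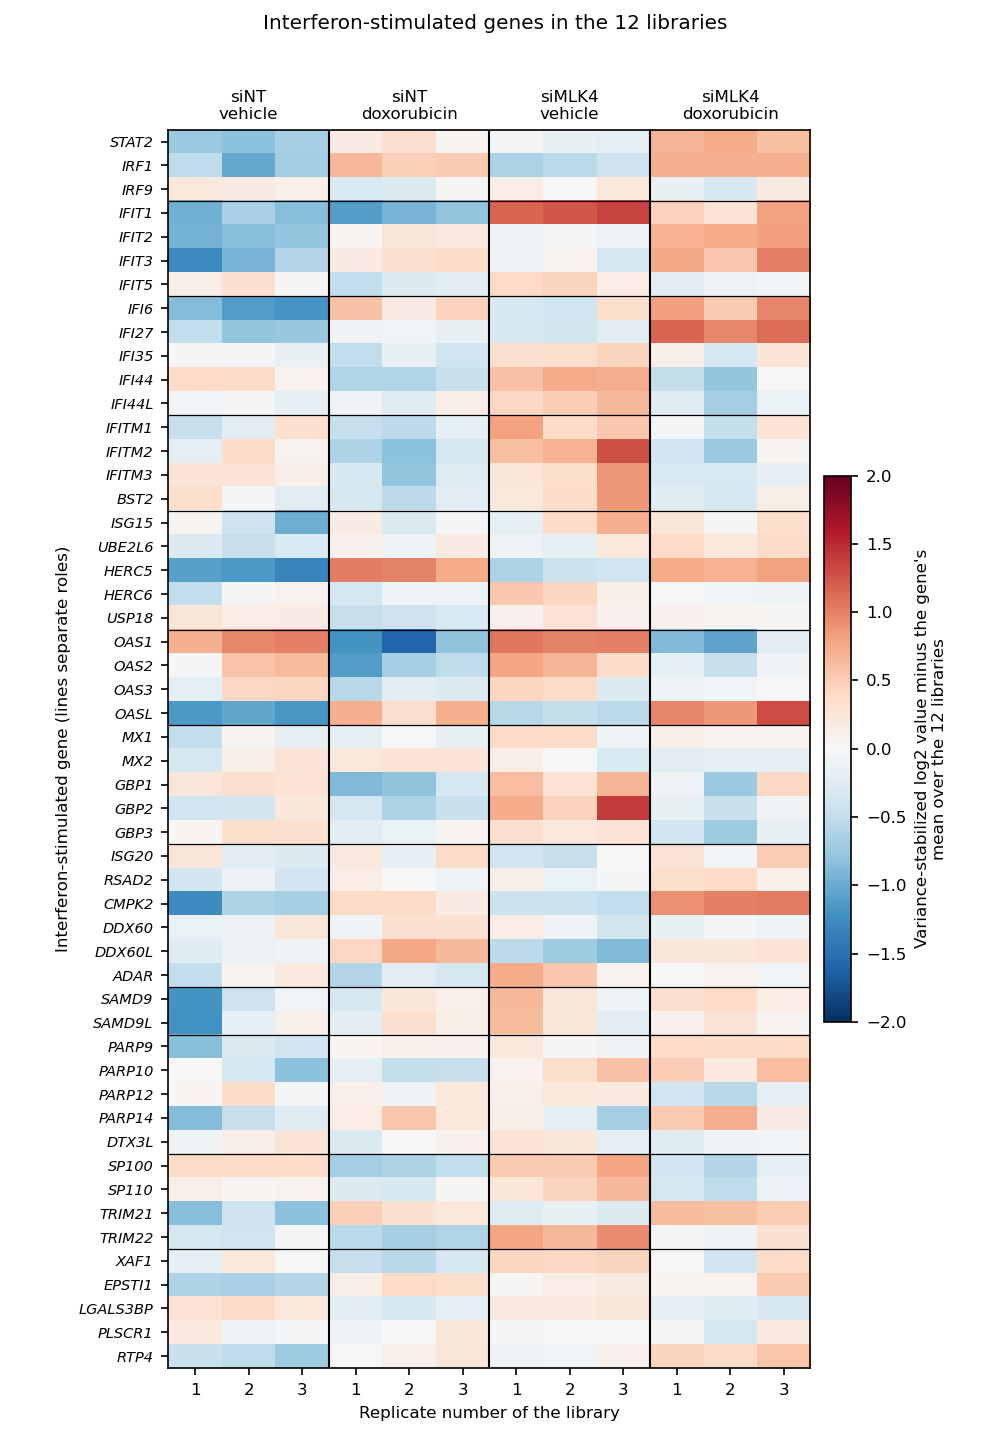
Variance-stabilized log2 values of the 52 interferon-stimulated genes, each minus its own mean over the 12 libraries, with genes in rows grouped by role and libraries in columns grouped by siRNA and treatment. IFIT1 is high in the 6 MLK4-depleted libraries, HERC5 and OASL are high in the 6 doxorubicin libraries, and OAS1 is low there.

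The first comparison asked what MLK4 knock-down did without drug. IFIT1, IFIT2 and IFIT3, which bind viral RNA or partner the proteins that do, the membrane protein gene IFI6, the guanylate-binding protein gene GBP2 and the ubiquitin ligase gene TRIM22 rose in MLK4-depleted cells, and no interferon-stimulated gene fell. IFIT1 rose most, by 2.07 (SE 0.14, adjusted p = 5.7e-07), to a mean 4.76 times that of control cells. The 6 genes make 11.5% of the set, against a background of 2.51% of all genes called higher and 3.14% called lower. In the direction called lower, 1 gene had an unadjusted p under 0.05 with limma, and limma-voom on the recovered reads also called 0. At an adjusted p under 0.05 with no fold change threshold, 24 genes (46.2%) were higher and 1 was lower, where 12.7% and 13% of all genes were. The median log2 fold change was 0.40, against 0.01 for all genes, and 42 of 52 genes had a positive value (80.8%, against 51.4% of all genes). The 3 libraries of each group did not overlap for 26 genes that were higher and 1 that was lower, where 19.7% and 18% of all genes did not. The count of 6 became 3 in a fit of the 6 libraries compared, where IFIT3, IFI6 and GBP2 no longer passed, or without siNT vehicle replicate 2, and 10 on a log2 scale with a pseudocount of 1 or 8.

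The second comparison asked the same in doxorubicin-treated cells. IFIT1 rose by 1.45 (SE 0.14, adjusted p = 1.2e-05), to 3.09 times the control mean, IFI27 rose by 1.18 (SE 0.11, adjusted p = 1e-05), to 3.34 times, and the ADP-ribosyltransferase gene PARP10 rose by 0.81 (SE 0.19, adjusted p = 0.0065), to 1.86 times. These 3 genes are 5.77% of the set, against a background of 2.66% of all genes called higher and 2.93% called lower, and 0 genes fell. In the direction called lower, 4 genes had an unadjusted p under 0.05 with limma, and limma-voom called 0. At an adjusted p under 0.05 there were 10 higher (19.2%, against 12.7% of all genes) and 3 lower (5.77%, against 12.1%). The 3 lower genes were PARP12 (-0.46), MX2 (-0.45) and DDX60L (-0.37). The median was 0.24, against 0.02 for all genes, and 40 genes (76.9%) had a positive value, against 52.8% of all genes. The PARP10 call was lost with the replicate number as a block, and without any of 7 libraries in turn: siMLK4 doxorubicin 1 or 3, siMLK4 vehicle 2, siNT doxorubicin 1, 2 or 3, or siNT vehicle 2. Its value in those 7 fits was 0.72 to 0.91, with adjusted p of 0.01 to 0.03.

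The knock-down comparisons with and without drug share no library. IFIT1 was the 1 interferon-stimulated gene that rose in both (1.92% of the set, against 0.811% of all genes). At an adjusted p under 0.05, 8 genes were higher in both (15.4%, against 5.84% of all genes). By the same rule 1 gene, DDX60L, was lower in both (1.92%, against 7.61%). A positive fold change in both was found for 36 of the 52 genes (69.2%), against 38.8% of all genes, and a negative one in both for 6 (11.5%), against 34.7%.

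**Figure D2:**
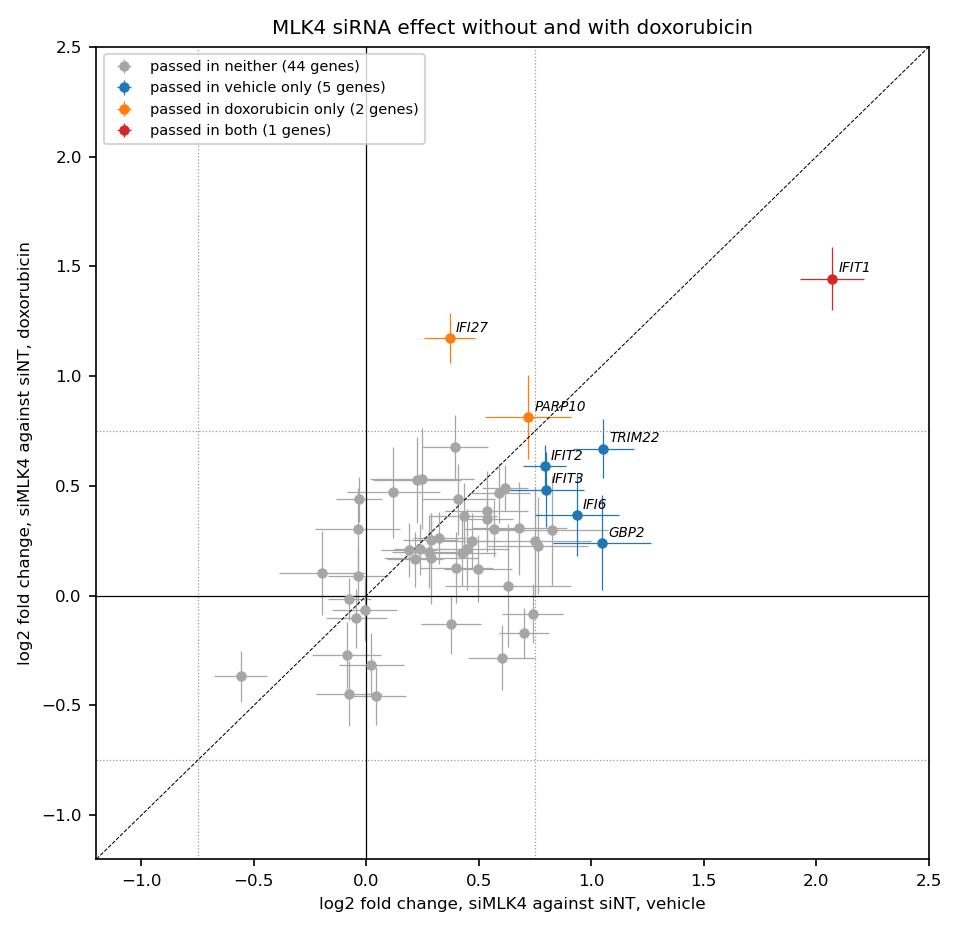
Log2 fold change of each of the 52 genes between siMLK4 and siNT cells on the variance-stabilized scale, with vehicle on the horizontal axis and with doxorubicin on the vertical axis; bars are standard errors, dotted lines mark 0.75 and the dashed line marks equal values. IFIT1 lies far from the rest at 2.07 and 1.45, and IFI27 lies well above the dashed line at 0.37 and 1.18.

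The third comparison asked how the set responded to doxorubicin, first in control cells. HERC5, OASL, IFI6, IRF1, IFIT3, CMPK2, IFIT2, TRIM21, STAT2, EPSTI1, PARP14 and DDX60L rose, and OAS1, OAS2, SP100, GBP1 and IFI44 fell. The largest changes were a rise of HERC5 by 2.10 (SE 0.11, adjusted p = 1.9e-08), to 5.32 times its vehicle mean, and a fall of OAS1, which fell by 2.09 (SE 0.21, adjusted p = 1.8e-06), to 0.16 times. The 12 rising genes are 23.1% of the set and the 5 falling genes 9.62%, against a background of 12.1% and 10.6% of all genes, so the falling share was near the background. At an adjusted p under 0.05 with no fold change threshold, 17 genes were higher and 14 lower (32.7% and 26.9%), near the 29.6% and 27.7% of all genes. The median fold change was 0.01, against 0.00 for all genes, and 27 of 52 genes had a positive value (51.9%, against 50.3% of all genes). With library totals in place of size factors the median of all genes moved by 0.20, and the split became 14 rising and 2 falling.

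In MLK4-depleted cells doxorubicin raised 11 genes and lowered 9, which is 21.2% and 17.3% of the set, against a background of 12.6% and 10.6% of all genes. The rising genes were OASL, CMPK2, IFI27, IRF1, HERC5, DDX60L, IFI6, IFIT3, IFIT2, TRIM21 and STAT2. The falling genes were OAS1, IFITM2, IFI44, GBP2, SP100, IFI44L, OAS2, SP110 and IFIT1. At an adjusted p under 0.05, 16 genes were higher and 21 lower (30.8% and 40.4%), where 30.2% and 27.7% of all genes were. The median was -0.14, against 0.02 for all genes, and ran from -0.28 to -0.09 with 1 library left out. A positive value was found for 21 genes (40.4%, against 51.3% of all genes). With library totals the median of all genes moved by 0.16, the median of the set became 0.04 and the split 12 and 6. The falling count was 5 without siMLK4 doxorubicin replicate 2 and 15 without siMLK4 doxorubicin replicate 3.

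The doxorubicin comparisons in the 2 siRNA arms share no library either. The same 10 genes rose in both (19.2% of the set, against 8.82% of all genes), and OAS1, OAS2, SP100 and IFI44 fell in both (7.69%, against 7.59%). No gene rose in 1 arm and fell in the other.

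**Figure D3:**
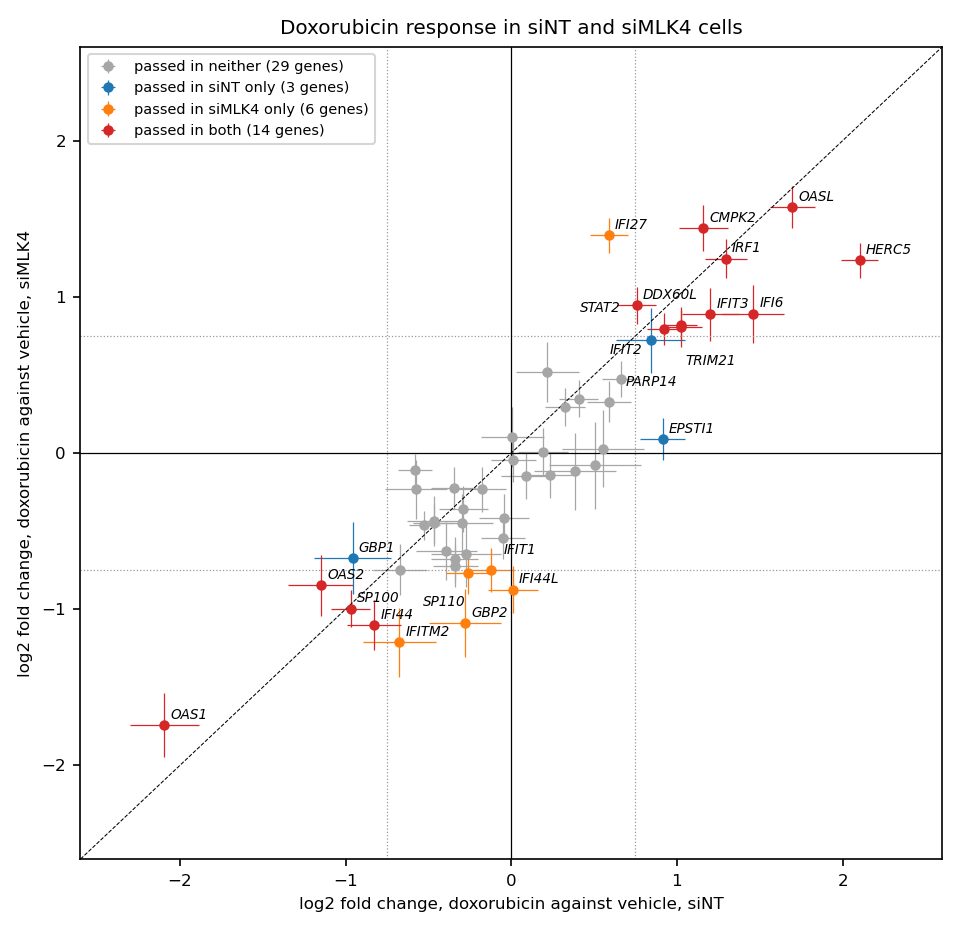
Log2 fold change of each of the 52 genes between doxorubicin and vehicle on the variance-stabilized scale, in siNT cells on the horizontal axis and in siMLK4 cells on the vertical axis; bars are standard errors, dotted lines mark 0.75 and the dashed line marks equal values. HERC5 lies below the dashed line at 2.10 and 1.23, IFI27 above it at 0.59 and 1.39, and OAS1 at the lower left at -2.09 and -1.74.

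The fourth comparison asked whether the doxorubicin response itself differed between MLK4-depleted and control cells. No interferon-stimulated gene passed the threshold of adjusted p under 0.01 with a difference over 0.75, where 0.0999% of all genes passed as higher and 0.176% as lower. Limma-voom also called 0, while with a transcript length slope as covariate 1 gene passed in each direction. In the main fit with limma, 10 of the 52 had an unadjusted p under 0.05, 2 with a positive and 8 with a negative difference. At an adjusted p under 0.05 there was 1 in each direction, where 0.576% of all genes were higher and 0.623% lower. The response of IFI27 was larger in MLK4-depleted cells by 0.81 (SE 0.16, adjusted p = 0.025), and that of HERC5 was smaller, with a difference of -0.87 (SE 0.16, adjusted p = 0.017). The median difference was -0.17, against 0.01 for all genes, and 38 of 52 genes had a negative value. A positive value was found for 14 genes (26.9%, against 52.1% of all genes). Genes with p-values just above the limit were EPSTI1, with a difference of -0.82 (SE 0.19, adjusted p = 0.055), and IFI44L, with -0.88 (SE 0.21, adjusted p = 0.058).

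**Figure D4:**
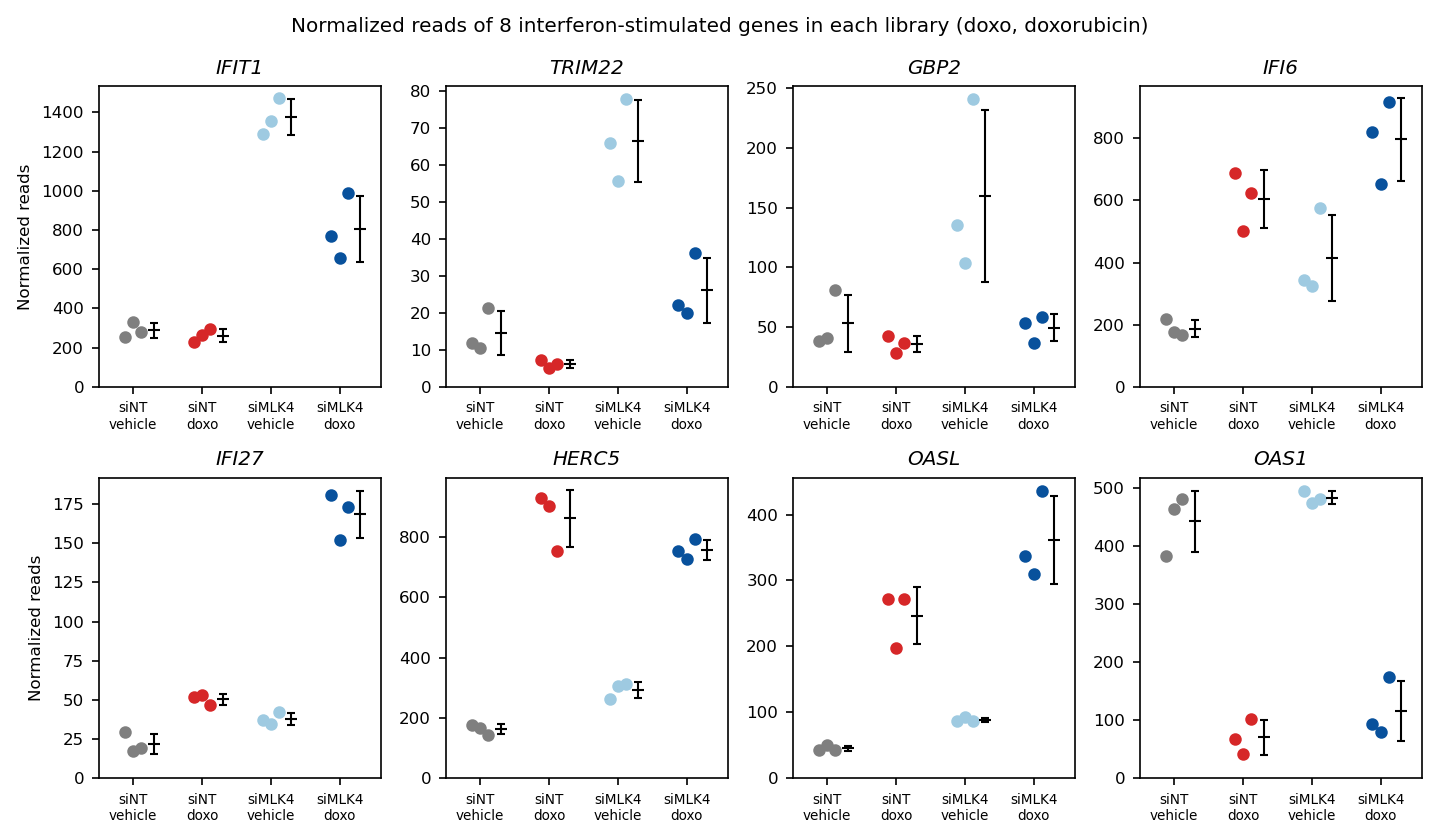
Normalized reads of 8 interferon-stimulated genes in each of the 12 libraries on linear axes that start at 0; points are libraries, and black bars are the mean and SD of 3 libraries. IFIT1 and TRIM22 are high in the siMLK4 vehicle libraries, IFI27 is high in the siMLK4 doxorubicin libraries, and HERC5 and OAS1 separate by drug.

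Among the transcription factors, STAT2, a subunit of the ISRE-binding complex, had 594, 561 and 632 normalized reads in siNT vehicle, 1157, 1315 and 1060 in siNT doxorubicin, 997, 923 and 904 in siMLK4 vehicle and 1684, 1746 and 1581 in siMLK4 doxorubicin. All 4 groups were apart from each other for this gene. Doxorubicin raised STAT2 by 0.92 in control cells (adjusted p = 5.4e-06) and by 0.79 in MLK4-depleted cells (adjusted p = 1.9e-05), and the knock-down differences of 0.62 and 0.49 stayed under the fold threshold. IRF1, a factor induced by interferon gamma and NF-κB, had 432, 286 and 370.5 normalized reads in siNT vehicle, 1034, 898 and 936 in siNT doxorubicin, 392, 419.5 and 465 in siMLK4 vehicle and 1078, 1076 and 1076 in siMLK4 doxorubicin. Its doxorubicin libraries lay above all vehicle libraries, with a rise of 1.30 in control and 1.24 in MLK4-depleted cells (SE 0.13 for each), while vehicle libraries of the 2 siRNA arms overlapped. IRF9, the DNA-binding subunit of the complex, had 2.5 to 13 normalized reads in the 12 libraries and passed no test. Its transcript shares 20.1% of its 50-base words with other genes, which makes its counts uncertain.

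The IFIT genes encode RNA-binding proteins of 1 family. With MLK4 knock-down 3 of the 4 rose with vehicle and 1 with doxorubicin. These are 75% and 25% of the family, where 2.51% and 2.66% of all genes were called higher. IFIT1, which binds incompletely capped RNA, had 255, 330.1 and 281 normalized reads in siNT vehicle, 226, 263 and 293 in siNT doxorubicin, 1290, 1358 and 1472 in siMLK4 vehicle and 768, 658 and 988 in siMLK4 doxorubicin. Every MLK4-depleted library lay above every control library. Doxorubicin did not separate the control groups, with a log2 fold change of -0.12 (adjusted p = 0.47), whereas in MLK4-depleted cells IFIT1 fell by 0.75 (SE 0.14, adjusted p = 0.00046). That fall is at the edge of the threshold and was lost without siMLK4 doxorubicin replicate 1 or 2 or siMLK4 vehicle replicate 3, where it was -0.73 to -0.62, and with library totals, where it was -0.57. The difference of the 2 responses was -0.63 (SE 0.20, adjusted p = 0.15).

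IFIT2 had 419, 452 and 483 normalized reads in siNT vehicle, 888, 1028 and 996 in siNT doxorubicin, 804.5, 832 and 819.5 in siMLK4 vehicle and 1426, 1470 and 1563 in siMLK4 doxorubicin. The 4 groups did not overlap. It rose with knock-down in vehicle by 0.79 (SE 0.10, adjusted p = 5.3e-05), a call lost without siNT vehicle replicate 1 (0.75, just under the threshold), and with doxorubicin by 1.02 in control and 0.82 in MLK4-depleted cells. Its knock-down value with doxorubicin was 0.59 (adjusted p = 0.0006), under the fold threshold. IFIT3, the partner of IFIT1 whose ISRE window is given above, had 169, 226 and 301 normalized reads in siNT vehicle, 537, 604 and 626 in siNT doxorubicin, 443, 501 and 360 in siMLK4 vehicle and 834, 712 and 1004 in siMLK4 doxorubicin. Its siMLK4 vehicle libraries lay between the siNT vehicle and siNT doxorubicin libraries. The knock-down rise of 0.80 (SE 0.17, adjusted p = 0.0037) was lost without siMLK4 vehicle 1 or 2 or siNT vehicle 1 or 2 (0.63 to 0.80), and the doxorubicin rises were 1.20 and 0.89. With doxorubicin the knock-down value was 0.48 (adjusted p = 0.051). IFIT5 had 224 to 475 normalized reads and passed no test.

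IFI6 and IFI27 encode small hydrophobic membrane proteins of 1 family, and both were highest in MLK4-depleted cells with doxorubicin. IFI6 had 218, 178 and 166 normalized reads in siNT vehicle, 688, 502 and 624 in siNT doxorubicin, 345, 324 and 574 in siMLK4 vehicle and 819, 654 and 917 in siMLK4 doxorubicin. Within each siRNA arm the drug groups did not overlap, and the siMLK4 vehicle library at 574 stood apart from the other two. IFI6 rose with knock-down in vehicle by 0.94 (SE 0.19, adjusted p = 0.0024), a call lost without siMLK4 vehicle 3 or siNT vehicle 2 or 3 (0.70 to 0.91), and with doxorubicin by 1.46 (SE 0.19, adjusted p = 1.7e-05) and 0.89 (SE 0.19, adjusted p = 0.00098), the last call lost, at 0.68, with a transcript length slope as covariate. With doxorubicin its knock-down value was 0.37 (adjusted p = 0.17). IFI6 shares 16.4% of its 50-base words with other genes. IFI27 had 29.4, 17.6 and 19.1 normalized reads in siNT vehicle, 51.7, 52.9 and 46.6 in siNT doxorubicin, 37.1, 34.9 and 42.2 in siMLK4 vehicle and 181, 152 and 173 in siMLK4 doxorubicin. The combined group was above all others by a wide margin. With doxorubicin it rose by 1.39 (SE 0.11, adjusted p = 4.2e-07), to 4.43 times, in MLK4-depleted cells. In control cells the value of 0.59 (SE 0.11, adjusted p = 0.00054) was under the fold threshold, while mean reads were 2.29 times those with vehicle.

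IFI44 and IFI44L encode related proteins. IFI44 had 638, 632 and 496 normalized reads in siNT vehicle, 295, 293 and 335 in siNT doxorubicin, 730.4, 821 and 818 in siMLK4 vehicle and 325, 257 and 467 in siMLK4 doxorubicin. It fell with doxorubicin by 0.83 (SE 0.16, adjusted p = 0.00057) in control cells, a call lost with library totals at -0.61, and by 1.10 (SE 0.16, adjusted p = 5.4e-05) in MLK4-depleted cells. IFI44L had 104, 108 and 92 normalized reads in siNT vehicle, 101, 84.5 and 125 in siNT doxorubicin, 161, 174 and 199 in siMLK4 vehicle and 84.8, 52.5 and 97.1 in siMLK4 doxorubicin. Only its siMLK4 vehicle libraries stood above the rest, and it fell with doxorubicin there by 0.87 (SE 0.15, adjusted p = 0.0002), a call lost without siMLK4 doxorubicin replicate 2 (-0.71). In control cells its doxorubicin value was 0.01 (adjusted p = 0.96). With knock-down in vehicle IFI44 had 0.40 (adjusted p = 0.083) and IFI44L 0.60 (adjusted p = 0.0089), neither past the test. IFI35 had 40.6 to 116 normalized reads and passed no test.

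The membrane restriction factors IFITM1, IFITM2, IFITM3 and BST2 act on virus entry or release. All 4 had positive knock-down values in vehicle, from 0.28 to 0.76, and negative doxorubicin values in both arms, but only 1 passed a test. IFITM2 had 52.8, 96.5 and 70.7 normalized reads in siNT vehicle, 29.5, 21.4 and 43.6 in siNT doxorubicin, 120.2, 132 and 222 in siMLK4 vehicle and 40.7, 24.2 and 69 in siMLK4 doxorubicin. It fell with doxorubicin in MLK4-depleted cells by 1.21 (SE 0.22, adjusted p = 0.00034), to 0.283 times. In control cells its value was -0.67 (SE 0.22, adjusted p = 0.018), and the difference was -0.54 (adjusted p = 0.48). IFITM1, IFITM2 and IFITM3 share 29.8%, 21.6% and 15.4% of their 50-base words with other genes, so their separate counts are uncertain.

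ISG15 is a ubiquitin-like protein that UBE2L6 and HERC5 attach to targets and USP18 removes. HERC5, its main ligase, had 176, 166 and 144 normalized reads in siNT vehicle, 931, 902 and 754 in siNT doxorubicin, 262.5, 306 and 312 in siMLK4 vehicle and 753, 728 and 793 in siMLK4 doxorubicin. Doxorubicin libraries lay far above vehicle libraries in both arms. The siMLK4 libraries lay above the siNT libraries with vehicle and overlapped them with doxorubicin. The knock-down values were 0.70 with vehicle (adjusted p = 0.00051, under the fold threshold) and -0.17 with doxorubicin (adjusted p = 0.29), and the drug raised HERC5 to 5.32 times in control and 2.58 times in MLK4-depleted cells. ISG15 itself had 666, 468 and 299.7 normalized reads in siNT vehicle and 550.1, 859.9 and 1087 in siMLK4 vehicle, groups that overlapped, and its value of 0.75 (SE 0.25, adjusted p = 0.038) did not pass. UBE2L6, the conjugating enzyme, HERC6 and USP18 passed no test, and 23.1% of the 50-base words of USP18 are shared with other genes.

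The OAS family makes oligoadenylates that activate RNase L, apart from OASL, which lacks that activity. Its members went in opposite directions with doxorubicin. OAS1 had 383, 465 and 482 normalized reads in siNT vehicle, 67.4, 42.8 and 102 in siNT doxorubicin, 496, 474 and 481 in siMLK4 vehicle and 94.1, 79.2 and 175 in siMLK4 doxorubicin. No doxorubicin library reached a vehicle library. In MLK4-depleted cells OAS1 fell by 1.74 (SE 0.21, adjusted p = 8.9e-06), to 0.24 times. OAS2 had 348, 561 and 584 normalized reads in siNT vehicle, 139, 209 and 238 in siNT doxorubicin, 656, 608 and 481 in siMLK4 vehicle and 311, 248 and 341 in siMLK4 doxorubicin. It fell by 1.15 (SE 0.20, adjusted p = 0.0002) and by 0.85 (SE 0.20, adjusted p = 0.002), and the second call was lost without siMLK4 doxorubicin replicate 2 (-0.74), with library totals (-0.69) and with the length slope as covariate (-0.66). OASL had 43.5, 49.8 and 42.7 normalized reads in siNT vehicle, 271, 198 and 272 in siNT doxorubicin, 86.2, 92.7 and 87.6 in siMLK4 vehicle and 337, 310.2 and 436 in siMLK4 doxorubicin. Its 4 groups did not overlap, and the drug raised it by 1.70 (SE 0.14, adjusted p = 3e-07) and 1.57 (SE 0.14, adjusted p = 6.4e-07), to 5.45 and 4.07 times. OAS3 had 2170 to 4359 normalized reads and passed no test.

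Of the antiviral GTPases, the dynamin-like MX1 and MX2 passed no test, with 819.6 to 1557 and 969.9 to 1527 normalized reads. Among the guanylate-binding proteins, GBP1 had 234, 247 and 241 normalized reads in siNT vehicle, 81.2, 88.6 and 141 in siNT doxorubicin, 317, 242 and 334 in siMLK4 vehicle and 174, 94.2 and 269.5 in siMLK4 doxorubicin. It fell with doxorubicin in control cells by 0.96 (SE 0.23, adjusted p = 0.0028), a call lost without siNT doxorubicin 1 or 2 or siNT vehicle 2 (-0.94 to -0.85) and with library totals (-0.77). In MLK4-depleted cells the drug groups overlapped, with a value of -0.67 (adjusted p = 0.022), and the difference was 0.29 (adjusted p = 0.77). GBP2 had 38.8, 40.5 and 80.8 normalized reads in siNT vehicle, 42.5, 28.5 and 36.5 in siNT doxorubicin, 135, 104 and 241 in siMLK4 vehicle and 53.4, 36.7 and 58.1 in siMLK4 doxorubicin. Its siMLK4 vehicle libraries were above all others. GBP2 rose with knock-down in vehicle by 1.05 (SE 0.22, adjusted p = 0.003), a call lost without siNT vehicle replicate 1 (0.94) or 2 (0.96), and fell with doxorubicin in MLK4-depleted cells by 1.09 (SE 0.22, adjusted p = 0.00068). Its doxorubicin value in control cells was -0.28 (adjusted p = 0.28), the difference of responses -0.81 (adjusted p = 0.22) and its knock-down value with doxorubicin 0.24 (adjusted p = 0.45). GBP3 had 145 to 355 normalized reads and passed no test.

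Among the RNA and nucleotide enzymes, the mitochondrial nucleotide kinase gene CMPK2 was almost silent without drug. It had 0, 5.19 and 4.49 normalized reads in siNT vehicle, 38.8, 38.7 and 28.4 in siNT doxorubicin, 9.02, 8.97 and 7.57 in siMLK4 vehicle and 73.8, 80.9 and 84.4 in siMLK4 doxorubicin. The 4 groups did not overlap. CMPK2 rose by 1.16 (SE 0.15, adjusted p = 1.6e-05) and 1.44 (SE 0.15, adjusted p = 2.4e-06), while its mean reads rose to 10.9 and 9.35 times, ratios that rest on few vehicle reads. The helicase gene DDX60L had 859.5, 945 and 978 normalized reads in siNT vehicle, 1384, 1796 and 1650 in siNT doxorubicin, 697, 611 and 537 in siMLK4 vehicle and 1213, 1212 and 1261 in siMLK4 doxorubicin. It was the 1 gene of the set lower in MLK4-depleted cells with vehicle at an adjusted p under 0.05, with a value of -0.56 (SE 0.12, adjusted p = 0.0034). With doxorubicin its knock-down value with limma was -0.37 (SE 0.12, adjusted p = 0.034). DDX60L rose with doxorubicin by 0.95 (SE 0.12, adjusted p = 1.3e-05) in MLK4-depleted cells and by 0.76 (SE 0.12, adjusted p = 9.2e-05) in control cells, where the call was lost with trimmed mean scaling (0.72) and without siNT doxorubicin 2 or 3 or siNT vehicle 1 (0.68 to 0.74). ISG20, an exonuclease, RSAD2, which encodes viperin, the helicase gene DDX60 and the RNA editing enzyme gene ADAR passed no test.

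SAMD9 and SAMD9L, restriction factors that block translation, had knock-down values in vehicle of 0.83 (SE 0.25, adjusted p = 0.024) and 0.63 (SE 0.28, adjusted p = 0.11) and passed no test. The spread between vehicle libraries was wide. SAMD9 had 719, 1278 and 1650 normalized reads in siNT vehicle and 2726, 2057 and 1609 in siMLK4 vehicle. The libraries at 719 and 2726 are also at the ends of a drift with transcript length: within their groups, variance-stabilized values of all genes changed per doubling of transcript length by -0.0515 in siNT vehicle replicate 1 and 0.052 in siMLK4 vehicle replicate 1, and by 0.0461 and -0.0655 in replicate 3 of the same groups. With that slope as a covariate, 8 genes rose with knock-down in vehicle.

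The ADP-ribosylation genes include PARP9 and its partner DTX3L and the transferase genes PARP10, PARP12 and PARP14. PARP10 had 558, 442 and 296 normalized reads in siNT vehicle, 486, 389 and 395 in siNT doxorubicin, 594, 730.4 and 872 in siMLK4 vehicle and 812, 652 and 897 in siMLK4 doxorubicin. Every siMLK4 library was above every siNT library, with knock-down values of 0.72 (adjusted p = 0.013) with vehicle, which did not pass, and 0.81 with doxorubicin, which did. PARP14 had 1092, 1466 and 1695 normalized reads in siNT vehicle, 2263, 3046 and 2387 in siNT doxorubicin, 2232, 1792 and 1262 in siMLK4 vehicle and 2969, 3440 and 2309 in siMLK4 doxorubicin. It rose with doxorubicin in control cells by 0.84 (SE 0.21, adjusted p = 0.0033), a call lost without siNT doxorubicin 2 (0.71) or siNT vehicle 1 (0.67), and had 0.72 (adjusted p = 0.0086) in MLK4-depleted cells. PARP9, PARP12 and DTX3L passed no test.

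SP100 and SP110 are nuclear body proteins. SP100 had 1348, 1333 and 1344 normalized reads in siNT vehicle, 617, 652 and 714 in siNT doxorubicin, 1489, 1502 and 1807 in siMLK4 vehicle and 775, 665 and 892 in siMLK4 doxorubicin. The drug lowered it in both arms, and SP100 fell by 0.97 (SE 0.12, adjusted p = 1.1e-05) and by 1.00 (SE 0.12, adjusted p = 8.3e-06), with the first call lost with library totals at -0.74. SP110 had 438, 419 and 430 normalized reads in siNT vehicle, 327, 318 and 413 in siNT doxorubicin, 488, 574 and 668 in siMLK4 vehicle and 313, 271 and 369 in siMLK4 doxorubicin. It fell by 0.77 (SE 0.14, adjusted p = 0.00027) in MLK4-depleted cells, a call lost without siMLK4 doxorubicin 2 (-0.67) or siMLK4 vehicle 3 (-0.66) and with library totals (-0.60). In control cells it had -0.26 (adjusted p = 0.12), and the difference was -0.51 (adjusted p = 0.22).

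TRIM21 and TRIM22 are ubiquitin ligases that passed the test in different comparisons. TRIM21, which also binds antibodies inside the cell, had 97.5, 147 and 99.9 normalized reads in siNT vehicle, 314, 273 and 254.5 in siNT doxorubicin, 170.3, 186 and 168 in siMLK4 vehicle and 356, 347 and 324 in siMLK4 doxorubicin. The 4 groups did not overlap, and TRIM21 rose with doxorubicin by 1.02 (SE 0.13, adjusted p = 1.3e-05) and 0.81 (SE 0.13, adjusted p = 0.0001). Its knock-down values with limma were 0.47 (adjusted p = 0.015) with vehicle and 0.25 (adjusted p = 0.17) with doxorubicin, neither past the test. TRIM22 had 11.7, 10.4 and 21.3 normalized reads in siNT vehicle, 7.38, 5.09 and 6.08 in siNT doxorubicin, 66.1, 55.8 and 77.8 in siMLK4 vehicle and 22.1, 20 and 36.3 in siMLK4 doxorubicin. Here the siMLK4 vehicle libraries were the highest and the siNT doxorubicin libraries the lowest. TRIM22 rose with knock-down in vehicle by 1.05 (SE 0.13, adjusted p = 7.9e-05), to 4.60 times, and had 0.67 (SE 0.13, adjusted p = 0.0025) with doxorubicin, which is 4.22 times in mean reads and under the fold threshold on the stabilized scale. Its drug values with limma were -0.34 (adjusted p = 0.044) in control and -0.72 (adjusted p = 0.00041) in MLK4-depleted cells, both under the fold threshold. In mean reads these are 0.427 and 0.392 times, and the drug groups did not overlap in either arm.

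EPSTI1, first described as induced by stroma in breast epithelium, had 75.2, 72.7 and 77.5 normalized reads in siNT vehicle, 156, 199.5 and 191 in siNT doxorubicin, 142, 160.4 and 164 in siMLK4 vehicle and 144, 148 and 221 in siMLK4 doxorubicin. Its siNT vehicle libraries were low and the other 3 groups overlapped. Doxorubicin raised it by 0.91 (SE 0.14, adjusted p = 6.1e-05) in control cells, and the value in MLK4-depleted cells was 0.09 (SE 0.14, adjusted p = 0.58). The apoptosis gene XAF1, LGALS3BP, the scramblase gene PLSCR1 and the receptor transporter gene RTP4 passed no test. In all, 25 of the 52 genes passed in at least 1 of the 5 comparisons and 27 in none. The 25 are 48.1% of the set, where 34% of all genes passed in at least 1.

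The rest of the pathway was read from 42 further genes, of which 30 were listed. None of 10 interferon ligand genes was among the listed genes, whose lowest member had a group mean of 10.7 normalized reads in its highest group. Among the 30, knock-down raised 2 with vehicle and 1 with doxorubicin and lowered 0, and doxorubicin raised 4 and lowered 2 in control cells and raised 5 and lowered 2 in MLK4-depleted cells. As shares these are 6.67% and 3.33% higher with knock-down, against 2.51% and 2.66% of all genes, 13.3% higher and 6.67% lower with doxorubicin in control cells, against 12.1% and 10.6%, and 16.7% higher and 6.67% lower in MLK4-depleted cells, against 12.6% and 10.6%. In the difference of responses 0 passed with limma, and STING1 had an adjusted p under 0.05. The 5 receptor genes and the 5 kinase genes listed passed no test.

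Among the signal factors, IRF3, which carries the signal of nucleic acid sensors to the nucleus, rose with doxorubicin by 1.16 (SE 0.18, adjusted p = 0.00011) in control and 1.25 (SE 0.18, adjusted p = 5.3e-05) in MLK4-depleted cells. IRF7, its relative, rose by 1.04 (SE 0.19, adjusted p = 0.00037) in MLK4-depleted cells and had 0.56 (SE 0.19, adjusted p = 0.022) in control cells, with a difference of 0.48 (adjusted p = 0.46). IRF8 went from 2.35, 3.12 and 2.25 normalized reads in siNT vehicle to 32.3, 54 and 41.6 in siNT doxorubicin and rose in control cells (adjusted p = 2.4e-06). In MLK4-depleted cells it had 10, 3.99 and 7.57 normalized reads with vehicle and 22.1, 32.5 and 34.5 with doxorubicin, a value of 0.72 (SE 0.13, adjusted p = 0.00028) under the fold threshold, and the difference of responses was -0.54 (adjusted p = 0.17). Of the inhibitors, SOCS1 had 17.6, 20.8 and 5.61 normalized reads in siNT vehicle and 36.1, 48.8 and 54.1 in siMLK4 vehicle and rose by 0.76 (SE 0.15, adjusted p = 0.0022), a call lost without siMLK4 vehicle 2 or 3 or siNT vehicle 3 (0.59 to 0.74), and had 0.58 (adjusted p = 0.012) with doxorubicin. SOCS3 rose with doxorubicin by 0.91 (SE 0.11, adjusted p = 8.3e-06) and 0.79 (SE 0.11, adjusted p = 2.7e-05), the second call lost without siMLK4 vehicle 3 (0.75, just under the threshold).

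Among the sensors, RIGI, which detects viral RNA, had 636, 678 and 589 normalized reads in siNT vehicle, 1933, 2022 and 1970 in siNT doxorubicin, 999.9, 1054 and 921 in siMLK4 vehicle and 2285, 2057 and 2515 in siMLK4 doxorubicin. Its 4 groups did not overlap, and it rose with the drug by 1.56 (SE 0.10, adjusted p = 7e-08) and 1.16 (SE 0.10, adjusted p = 7.6e-07). TLR3, an endosomal RNA receptor, had 189, 241 and 378 normalized reads in siNT vehicle, 72, 82.5 and 106.5 in siNT doxorubicin, 601, 435 and 463 in siMLK4 vehicle and 195, 168 and 218 in siMLK4 doxorubicin. It rose with knock-down by 0.81 (SE 0.19, adjusted p = 0.006) with vehicle and by 0.85 (SE 0.19, adjusted p = 0.0047) with doxorubicin, and it fell with doxorubicin by 1.21 and 1.17. The first rise was lost without siMLK4 vehicle 1, 2 or 3, siNT vehicle 1 or 2 or siMLK4 doxorubicin 1 (0.63 to 0.90), and the second without siMLK4 doxorubicin 1 or 3 or siNT doxorubicin 1 or 2 (0.77 to 0.85). CGAS, the sensor of cytosolic DNA, rose with the drug in MLK4-depleted cells by 0.80 (SE 0.12, adjusted p = 5.1e-05), a call lost without siMLK4 doxorubicin 3 (0.70). Its value in control cells was 0.64 (SE 0.12, adjusted p = 0.00035), under the fold threshold, and the difference was 0.16 (adjusted p = 0.72). IFI16, another DNA sensor, fell by 0.95 (SE 0.15, adjusted p = 0.00011) and by 0.79 (SE 0.15, adjusted p = 0.00052), the second call lost without siMLK4 doxorubicin 2 (-0.68) or siMLK4 vehicle 3 (-0.72). STING1, the adaptor of CGAS, had 322, 342 and 337 normalized reads in siNT vehicle, 356, 379.7 and 413 in siNT doxorubicin, 447, 450.4 and 493 in siMLK4 vehicle and 283, 253 and 358 in siMLK4 doxorubicin. The drug values were 0.17 in control and -0.57 in MLK4-depleted cells, and their difference was -0.74 (SE 0.17, adjusted p = 0.044).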

How the data were processed

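Libraries of poly(A)-selected RNA were sequenced as read pairs. Per the methods and labels, the authors trimmed reads with Trimmomatic 0.39, aligned them with HISAT2, counted them per gene with HTSeq 0.6.0 by strand and stabilized the variance with DESeq2 1.26.0. The deposited values are log2 values of this transformation for 17013 genes in 12 libraries. The labels name hg19 and the supplementary methods GRCh38, and no coordinates were taken from the table. Symbols came from GENCODE 44 for 16957 genes. The transformation was inverted from its value at 0 reads, 4.7603, and multiplication by each library's size factor (0.852 to 1.20) gave whole reads for 100% of values within 0.05. Library totals of 16759025 to 19302248 follow from these reads. No pair of replicates agreed within sampling noise (chi-square per degree of freedom 7.01 to 63.7). Genes were fitted with limma 3.58.1 in R 4.3.3 (lmFit, eBayes with a variance trend), with 4 group means over all 12 libraries, Benjamini-Hochberg adjustment over all genes, and calls at adjusted p under 0.01 with an absolute log2 fold change over 0.75. The script was tested on simulated data. With 3 against 3 libraries an exact permutation test of 1 gene cannot go below p = 0.1, so none was used. The genes, pathway lists and markers were chosen with earlier results of these data known, and the search for TTCNNNGAA was added after values were seen. All 25 genes that passed a test are given in every library. Deviations from group means of same-numbered libraries correlated at 0.19, 0.516 and 0.559 for the knock-down with doxorubicin. For doxorubicin in control cells these correlations were 0.46, 0.105 and 0.205. They were -0.723, 0.325 and -0.523 for the knock-down with vehicle, and -0.077, 0.176 and 0.337 for doxorubicin in MLK4-depleted cells. Libraries of different numbers were not compared, so these values cannot show that the numbers pair the libraries. The labels state no pairing. The block changed the call of PARP10 alone. Alternatives were other scalings (library totals, trimmed mean of M-values), pseudocounts of 1 and 8, limma-voom, no variance trend, a filter at a mean of 50 normalized reads, only the groups compared, each library left out, and a replicate block, with a transcript length slope as covariate added after seeing the data. Sequences came from RefSeq (GRCh38.p14) for 43 of 52 genes. Shares of 50-base words were taken over GENCODE 44 transcripts.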

Additional observations from a re-analysis of the deposited data

Results flagged for a closer look

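The doxorubicin response differed between MLK4-depleted and control cells at an adjusted p under 0.05 (limma, Benjamini-Hochberg over all genes) for 4 of 97 genes looked at, counting the set, the pathway genes and the markers, by a test of the difference itself on the variance-stabilized log2 scale. Of all 17013 genes, 0.576% were higher and 0.623% lower by this rule, and 1 of the 4 was higher and 3 were lower. For IFI27 the difference was 0.81 (SE 0.16, adjusted p = 0.025), and all 3 siMLK4 doxorubicin libraries were above every other library. HERC5 had a difference of -0.87 (SE 0.16, adjusted p = 0.017), with knock-down libraries above control with vehicle and overlapping control with doxorubicin. For STING1 the difference was -0.74 (SE 0.17, adjusted p = 0.044). KRT5, a keratin of basal epithelium used as a marker of the cell line, had a difference of -0.96 (SE 0.22, adjusted p = 0.047): its mean normalized reads went from 20880 to 8817 in control cells and from 32260 to 7035 in MLK4-depleted cells. No cause was tested for any of these.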

How the results depend on the processing

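No called value changed sign under any alternative run. Called genes, given as the count in the report and then under each alternative, were as follows. For genes higher with MLK4 knock-down in vehicle, 6 became 10 with log2(normalized reads + 1), 10 with log2(normalized reads + 8), 3 in a fit of the groups compared, 24 at an adjusted p under 0.05, and 3 to 9 with 1 library left out. For knock-down with doxorubicin, 3 became 5 with log2(normalized reads + 8), 5 with limma-voom, 10 at an adjusted p under 0.05 and 2 to 4 with 1 library left out. Genes lower with knock-down, 0 in each, were 1 and 3 at an adjusted p under 0.05. For genes lower with doxorubicin in control cells, 5 became 2 with library totals, 14 at an adjusted p under 0.05 and 4 to 6 with 1 library left out. In MLK4-depleted cells 9 became 21 at an adjusted p under 0.05 and 5 to 15 with 1 library left out. The difference of responses, 0 in each direction, gave 1 and 1 with the length slope as covariate and at an adjusted p under 0.05. The causes were not tested, beyond the lower threshold and the fewer libraries. The median in control cells with doxorubicin, 0.01, was 0.20 with library totals and ran from -0.08 to 0.04 with 1 library left out.

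With the replicate block over 12 libraries, knock-down with doxorubicin had 2 genes higher, since PARP10 (0.81) no longer passed. No other call changed. In a fit of the groups compared with the block, the count stayed at 3. Of 48 calls of single genes (46 of the set and 2 of MAP3K21), 42 held with library totals, 46 with the length slope, 45 in fits of the groups compared and 48 with limma-voom. The filter at a mean of 50 normalized reads left 46 of the 52 genes. Depth limits CMPK2, RSAD2, IRF9 and TRIM22 most, and the stabilized scale shrinks fold changes of such weakly expressed genes.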
